A study of Homo sapiens with 60 samples.

Results

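The SLC30 genes encode zinc transporters, also called ZnT proteins, which move zinc out of the cytosol, either across the plasma membrane or into an organelle. They work opposite to the SLC39 (ZIP) importers, which bring zinc into the cytosol, and beside the metallothioneins, small cysteine-rich proteins that bind zinc and cadmium. In human cells the metallothionein genes and SLC30A1 are known targets of MTF1, a zinc-sensing transcription factor that binds short DNA elements called metal response elements. The members described here were 7 genes chosen by symbol from the count table, SLC30A1, SLC30A3, SLC30A4, SLC30A5, SLC30A6, SLC30A7 and SLC30A9, out of 62703 genes listed there. The rule gave names and no expression value, but earlier results of these data were known when the choice was made. The family genes left out, SLC30A2, SLC30A8 and SLC30A10, had 9, 0 and 0 counts over all 60 libraries. The choice may therefore not be independent of expression level. Of the 7 members, 6 passed the filter on low counts and were tested, and SLC30A4 did not pass.

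RNA was measured in 1321N1 cells, a human line derived from an astrocytoma, by 3′ end sequencing. Cells were left non-treated or were given sodium metaarsenite (arsenic) at 2.55 µM, cadmium chloride (cadmium) at 2.3 µM or mercury chloride (mercury) at 20 µM, and were collected at 1.5, 3, 6 and 12 h and, last, at 24 h. Each of the 20 combinations had 3 libraries, 60 in all, which the labels describe as technical replicates, so that every error and p-value given here measures the spread between these libraries and may not include the spread between independent cultures. The 3 metals were used at different concentrations, and a difference between them is a difference between these treatments, not between equal amounts of metal.

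The libraries held 2215276 to 4404609 counts, and levels are given as CPM, that is counts relative to the total of the library, scaled by the trimmed mean of M-values (TMM). In 3′ end sequencing a transcript gives about the same number of reads whatever its length, so CPM levels are set side by side between genes as an approximation. Other differences between genes in how their 3′ ends are captured or aligned were not corrected for. A change in CPM in bulk RNA cannot tell a change in all cells from a change in the fraction of cells that respond or in the RNA per cell. Of 10 astrocyte markers, 4 passed the filter (VIM, CD44, SOX9 and NES), whereas AQP4 and ALDH1L1 had no count in any library and GFAP had 6 counts over all 60 libraries. Neuronal SYP was the single tested marker among those of the other cell types, with group means of at most 1.88 CPM. Effects are log2 fold changes (LFC) of a metal over non-treated cells of the same time, with the standard error (SE), and a gene was called when its adjusted p from edgeR's quasi-likelihood test was under 0.05 over the 12341 genes tested.

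The promoters were searched for the metal response element core because the data bear on genes that this element is known to serve. The core was written as TGCACNC or TGCGCNC and looked for on both strands from 250 bases before to 50 bases after the RefSeq gene start (GRCh38.p14), with a promoter found for all 7 members. SLC30A1 held 2 cores, both spelled GAGTGCA on the gene's strand, 1 at position -49 from the start (chr1:211579204-211579210) and 1 at position 25 after it (chr1:211579131-211579137). SLC30A6 held 1 core at position -128, SLC30A4 held 1, and the 2 listed promoters of SLC30A3 held 2 and 1. No core in these letters was present in the window of SLC30A5, SLC30A7 or SLC30A9. Of 35116 promoters of the same length, 29.6% held at least 1 core and 8.60% at least 2, and all 5 metallothionein promoters found in the same collection held at least 2. A match of letters is a description and not a measured binding site.

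The 250 bases before the start are shown for the 3 members that were called in any comparison with non-treated cells, 5′ to 3′ on the gene's strand, with the core in capitals. They cover chr1:211579162-211579411 on the minus strand for SLC30A1, chr2:32165614-32165863 on the plus strand for SLC30A6 and chr1:100895840-100896089 on the plus strand for SLC30A7.
SLC30A1: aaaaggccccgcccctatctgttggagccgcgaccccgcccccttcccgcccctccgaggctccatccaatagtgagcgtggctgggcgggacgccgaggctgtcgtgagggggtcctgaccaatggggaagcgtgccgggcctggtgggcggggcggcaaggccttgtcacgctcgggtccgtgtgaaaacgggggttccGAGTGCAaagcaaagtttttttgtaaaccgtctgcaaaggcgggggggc
SLC30A6: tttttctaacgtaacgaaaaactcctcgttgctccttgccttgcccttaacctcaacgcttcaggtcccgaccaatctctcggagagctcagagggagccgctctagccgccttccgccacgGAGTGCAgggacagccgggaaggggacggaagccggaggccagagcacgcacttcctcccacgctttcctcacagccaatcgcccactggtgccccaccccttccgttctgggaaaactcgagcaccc
SLC30A7: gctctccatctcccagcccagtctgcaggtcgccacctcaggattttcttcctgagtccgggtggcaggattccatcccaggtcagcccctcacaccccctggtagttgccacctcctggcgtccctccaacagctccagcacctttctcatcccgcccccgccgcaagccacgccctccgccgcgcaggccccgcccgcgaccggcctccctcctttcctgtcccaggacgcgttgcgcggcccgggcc
The core of SLC30A1 lay close to the start, that of SLC30A6 lay in the middle of its window, and the SLC30A7 sequence is shown without capitals because it had none.

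SLC30A1 encodes the zinc exporter of the plasma membrane and lies at chr1:211571568-211579161 on the minus strand. It rose with all 3 metals, by up to 6.37-fold with cadmium at 6 h, and was called in 13 of 15 comparisons with non-treated cells, each time higher. Among non-treated cells its level was steady, between 36.7 and 58.5 CPM over 15 libraries with a median of 45.3 CPM. The metals differed in time course: mercury raised it already at 1.5 h, and cadmium raised it most and from 3 h. Arsenic raised it from 3 h on, by about the same amount from 6 h to 24 h. No change of the arsenic effect between neighbouring times was called. All 3 libraries of a metal lay above all 3 non-treated libraries of the same time in those 13 comparisons. These comparisons were already called, and the share of all genes with such a separation was not counted. The separation therefore describes the libraries and adds no support to the calls.

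**Figure D1:**
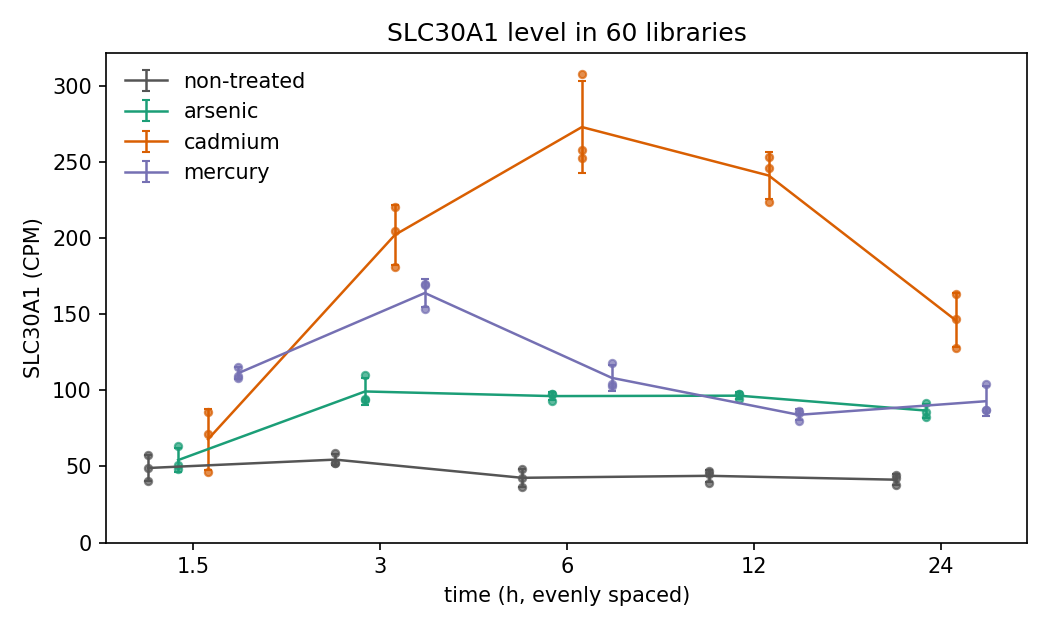
SLC30A1 level in CPM (y axis) against hours of treatment (x axis, time points evenly spaced) for non-treated, arsenic, cadmium and mercury cells, with points for single libraries and lines with bars for the mean ± SD of 3 libraries. Cadmium peaks at 6 h, mercury is highest at 3 h, arsenic libraries lie between 82.8 and 109.8 CPM from 3 h on, and non-treated libraries remain between 36.7 and 58.5 CPM.

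With cadmium at 1.5 h, SLC30A1 stood at 86.0, 46.2 and 71.4 CPM, against 40.5, 57.5 and 48.9 CPM without treatment. The groups overlapped because of the second cadmium library, and the LFC of 0.47 (SE 0.14) had an unadjusted p of 0.000987 and an adjusted p of 0.398 by edgeR. At that time 0% of the genes tested were called with cadmium by edgeR, with 991 of 12341 genes under an unadjusted p of 0.05 and 3 genes called by DESeq2. At 3 h the cadmium libraries reached 220.3, 204.8 and 181.2 CPM while the non-treated libraries held 52.5, 52.4 and 58.5 CPM. That gave an LFC of 1.89 (SE 0.13, adjusted p = 7.11e-19), a 3.71-fold rise, when 0.203% of genes tested were called higher. By its p-value, SLC30A1 ranked 4th among all genes tested at 3 h and again at 6 h with cadmium. These were its best ranks, and among its called comparisons the rank went down to 189th, with mercury at 24 h.

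At 6 h of cadmium the level was 252.7, 258.0 and 307.9 CPM, the highest group mean of the series (272.9 ± 30.5 CPM, SD, n = 3), with 36.7, 42.4 and 48.5 CPM in non-treated cells. Its LFC there was 2.67 (SE 0.13, adjusted p = 8.3e-26), beside 1.6% of genes tested called higher. At 12 h the cadmium libraries held 223.7, 253.3 and 246.2 CPM and the LFC was 2.46 (SE 0.13, adjusted p = 8.21e-25), a 5.51-fold rise, with 5.19% of genes called higher. By 24 h they had come down to 163.4, 146.6 and 127.9 CPM, still above the 42.2, 37.5 and 44.1 CPM of non-treated cells, with an LFC of 1.82 (SE 0.13, adjusted p = 5.95e-18) and 1.56% of genes called higher. The 24 h cadmium libraries were all lower than the 12 h ones.

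With mercury, the 1.5 h libraries were already at 109.7, 108.2 and 115.6 CPM, all above the highest non-treated library. The LFC was 1.19 (SE 0.13, adjusted p = 9.82e-10), a 2.27-fold rise, at a time when 0.478% of genes tested were called higher with mercury. Levels rose further to 153.1, 169.7 and 168.8 CPM at 3 h, where the LFC was 1.59 (SE 0.13, adjusted p = 1.15e-15) and 1.39% of genes were called higher. After that they were lower again, at 103.9, 102.5 and 118.1 CPM at 6 h and 79.8, 85.2 and 86.7 CPM at 12 h, and they stood at 104.2, 87.4 and 86.9 CPM at 24 h. The LFC at these later times was 1.34, 0.94 and 1.17, with adjusted p of 6.76e-12, 1.75e-07 and 1.52e-10, while 4.49%, 8.89% and 13.9% of genes tested were called higher. The lowest mercury library at any time, 79.8 CPM, was above the highest non-treated library of any time.

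With arsenic, SLC30A1 was near the non-treated level at 1.5 h, at 63.2, 51.0 and 48.2 CPM, with an LFC of 0.15 (SE 0.14, 95% interval -0.13 to 0.43, adjusted p = 0.779) and 0.0648% of genes called higher. From 3 h it stood apart, at 94.3, 109.8 and 93.6 CPM, with an LFC of 0.86 (SE 0.13, adjusted p = 2.52e-05), a 1.81-fold rise, beside 0.122% of genes called higher. The libraries of 6 h, 12 h and 24 h were close together, between 82.8 and 97.8 CPM. Their LFC values were 1.17, 1.14 and 1.07, with adjusted p of 3.27e-09, 1.19e-09 and 5.02e-09, beside 0.608%, 2.37% and 6.54% of genes called higher.

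The change of the effect from one time point to the next was tested as an interaction, and 2 of 72 such values over the 6 tested members were called, both for SLC30A1 with cadmium. The cadmium effect grew by 1.42 on the log2 scale (SE 0.19, adjusted p = 6.24e-07) from 1.5 h to 3 h, when 0.0729% of genes tested were called in either direction. It grew by a further 0.78 (SE 0.18, adjusted p = 0.035) from 3 h to 6 h, with 0.348% called, a call that was lost without any 1 of 6 of the 12 libraries involved (adjusted p 0.0534 to 0.131). Between 6 h and 12 h the effect differed by -0.21 (adjusted p = 0.783). The decline from 12 h to 24 h had an LFC of -0.64 (95% interval -1.01 to -0.27), with an adjusted p of 0.121 by edgeR and 0.0412 by DESeq2. For mercury the difference between 3 h and 1.5 h was 0.40 (adjusted p = 0.9997) and that between 12 h and 6 h was -0.40 (adjusted p = 0.328), so that neither its rise nor its decline between neighbouring times was called. For arsenic the step from 1.5 h to 3 h was 0.71 (unadjusted p = 0.000479, adjusted p = 0.394). Over all genes, the share called in the 10 interactions without a member's call was 0.324% and 0.381% for the later steps with cadmium, 0.113%, 0.324%, 1.92% and 0.624% for the 4 steps with mercury and 0.0324%, 0.0648%, 0.308% and 1.57% for the 4 steps with arsenic.

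Set side by side at the same time, the metals gave different SLC30A1 levels in 10 of 15 direct comparisons, which do not use the non-treated libraries. At 1.5 h mercury exceeded arsenic by 2.05-fold (adjusted p = 3.63e-08) and cadmium by 1.64-fold (adjusted p = 0.000193), when 1.56% and 0.656% of genes tested were called between those pairs. At 6 h and 12 h the order of these 2 metals was the opposite, with cadmium 2.52-fold (adjusted p = 3.14e-13) and 2.87-fold (adjusted p = 6.09e-15) above mercury, beside 3.78% and 3.29% of genes called. Cadmium still exceeded mercury at 24 h, by 1.58-fold (adjusted p = 4e-05), beside 20% of genes called. At 3 h, between these states, the difference between cadmium and mercury was 0.30 (95% interval 0.07 to 0.54, adjusted p = 0.232), with 1.78% of genes called.

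**Figure D2:**
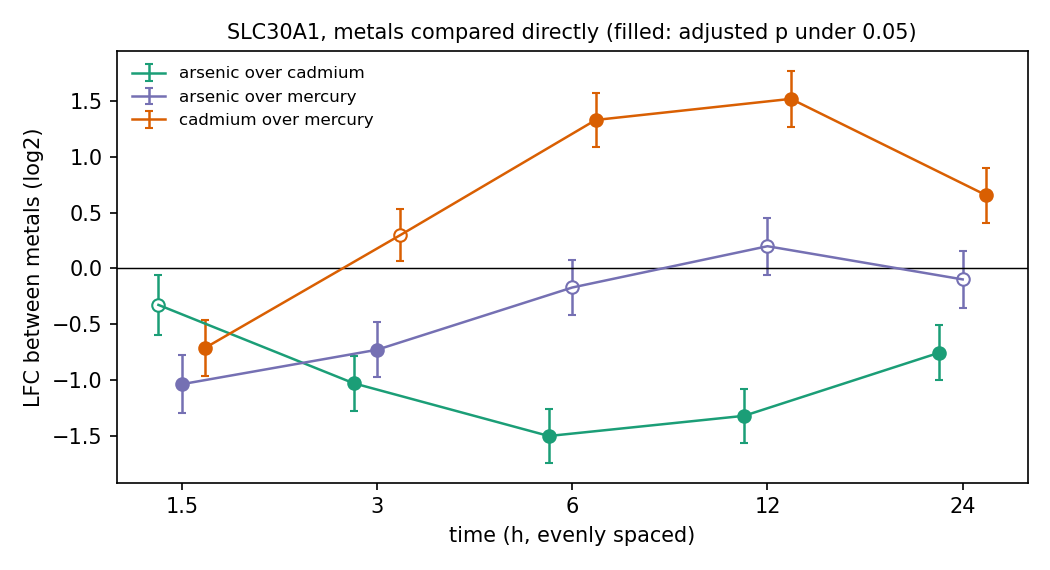
Direct differences in SLC30A1 between metals at the same time (y axis, log2 fold change of the first metal over the second, x axis, hours of treatment, evenly spaced), with 95% intervals as bars and filled points where the adjusted p was under 0.05. Cadmium minus mercury passes from -0.71 at 1.5 h to 1.52 at 12 h, and arsenic minus mercury lies near 0 from 6 h on.

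Cadmium exceeded arsenic from 3 h on, by 2.04-fold at 3 h (adjusted p = 2.03e-08), 2.83-fold at 6 h (adjusted p = 2.37e-15), 2.50-fold at 12 h (adjusted p = 1.89e-13) and 1.69-fold at 24 h (adjusted p = 4.57e-06). The share of all genes called between arsenic and cadmium at these times was 0.138%, 1.18%, 5.77% and 10.2%. At 1.5 h their difference was -0.33 (95% interval -0.59 to -0.06) with an adjusted p of 0.631, at a time when 0% of genes were called between these metals. Arsenic was below mercury by 1.66-fold at 3 h (adjusted p = 4.11e-05, with 1.89% of genes called). At 6 h, 12 h and 24 h arsenic and mercury were not told apart, beside 4.48%, 6.84% and 11.4% of genes called, with differences of -0.17 (95% interval -0.42 to 0.08), 0.20 (-0.05 to 0.45) and -0.10 (-0.35 to 0.16).

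In the order of the 20 group means of SLC30A1, the cadmium groups of 6 h, 12 h and 3 h came first (272.9, 241.0 and 202.1 CPM), followed by mercury at 3 h (163.9 CPM) and cadmium at 24 h (146.0 CPM). The ranges of neighbouring groups were apart at 3 places, below cadmium at 12 h, below cadmium at 3 h and below cadmium at 24 h. The other 16 pairs of neighbours overlapped, so that each of these was not told apart from the next by its range. Groups farther apart in the order could still be separate, as mercury at 1.5 h (108.2 to 115.6 CPM) was from arsenic at 6 h (93.3 to 97.7 CPM). The lowest mean was that of non-treated cells at 24 h (41.3 ± 3.42 CPM, SD, n = 3), a factor of 6.61 below the highest.

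SLC30A1 was also expressed as a share of the family, without a test. In non-treated libraries it made up 20.5% to 31.2% of the summed CPM of the 7 genes, with a median of 23.9%. With cadmium this share was 34.9% ± 7.92, 57.4% ± 2.86, 65.7% ± 3.46, 62.2% ± 4.16 and 49.98% ± 2.60 (SD, n = 3) from 1.5 h to 24 h. With mercury it was highest at 3 h (53.5% ± 3.42) and was 37.6% ± 2.04 at 24 h, and with arsenic it lay between 28.8% ± 3.61 at 1.5 h and 40.6% ± 2.94 at 3 h. At 1.5 h the arsenic libraries (25.8% to 32.8%) and the cadmium libraries (26.6% to 42.4%) overlapped the non-treated ones (23.1% to 27.3%). The other 6 genes together had group means between 123 and 162 CPM in all 20 groups, with no comparison of that sum tested.

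**Figure D3:**
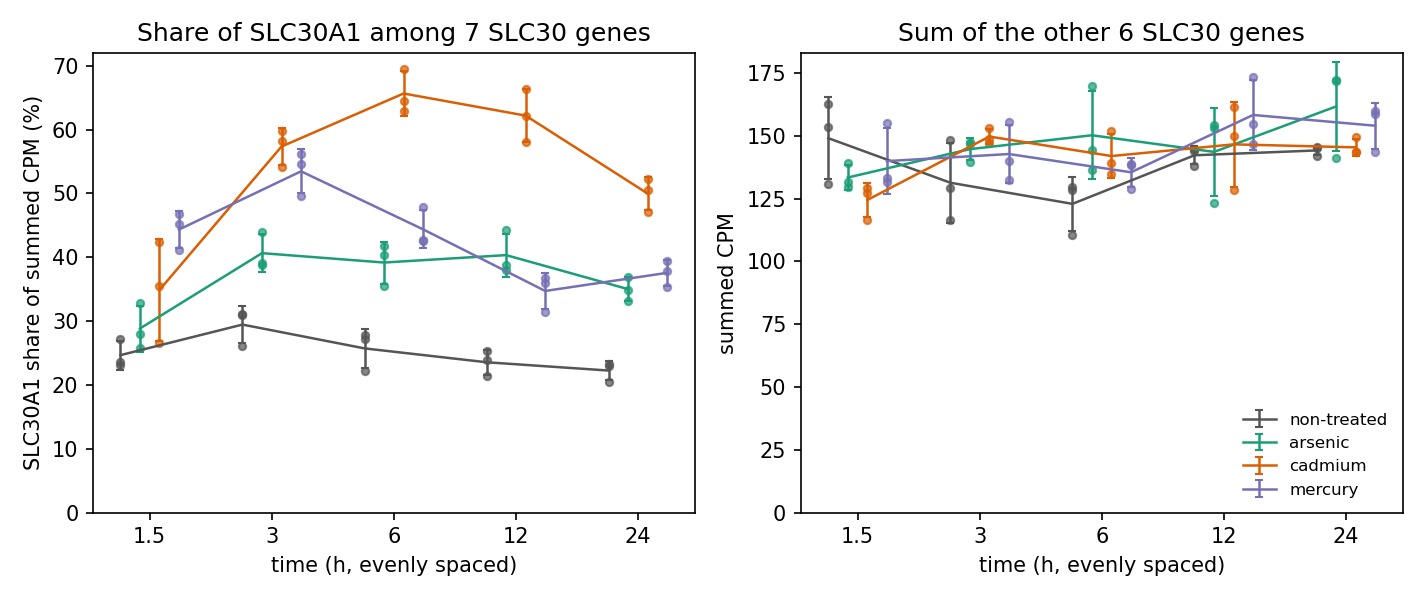
Share of SLC30A1 in the summed CPM of the 7 SLC30 genes (y axis, percent) against hours of treatment (x axis, evenly spaced), with points for libraries and lines with bars for mean ± SD of 3 libraries. Non-treated libraries stay between 20.5% and 31.2%, and cadmium reaches 65.7% at 6 h.

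The remaining members were called in 3 of 75 comparisons with non-treated cells, all with mercury and all higher. The genes were SLC30A7 at 12 h and 24 h and SLC30A6 at 24 h, in comparisons where 8.89% and 13.9% of all genes tested were called higher. At 12 h, 1 of 5 remaining members was called, and at 24 h, 2 of 5. Another 8 values had an unadjusted p under 0.05 without being called. Among the 12341 genes tested, 694 (mercury at 1.5 h) to 4642 (mercury at 24 h) had such a p in a comparison. Over all 6 tested members, 16 of 90 values were called, 8 of them with mercury and 4 each with arsenic and cadmium, and none was called lower than in non-treated cells. Mercury also had the highest share of all genes called higher, up to 13.9% at a time point, against up to 6.54% with arsenic and 5.19% with cadmium, and the numbers of members called by metal are to be read against these shares. The median LFC of the 5 remaining members stayed between -0.29 and 0.37 over the 15 comparisons, while that of all genes tested stayed within 0.021 of 0. A median of 5 genes varies more than one of 12341 genes, so the wider range is not read as a shift of the members.

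**Figure D4:**
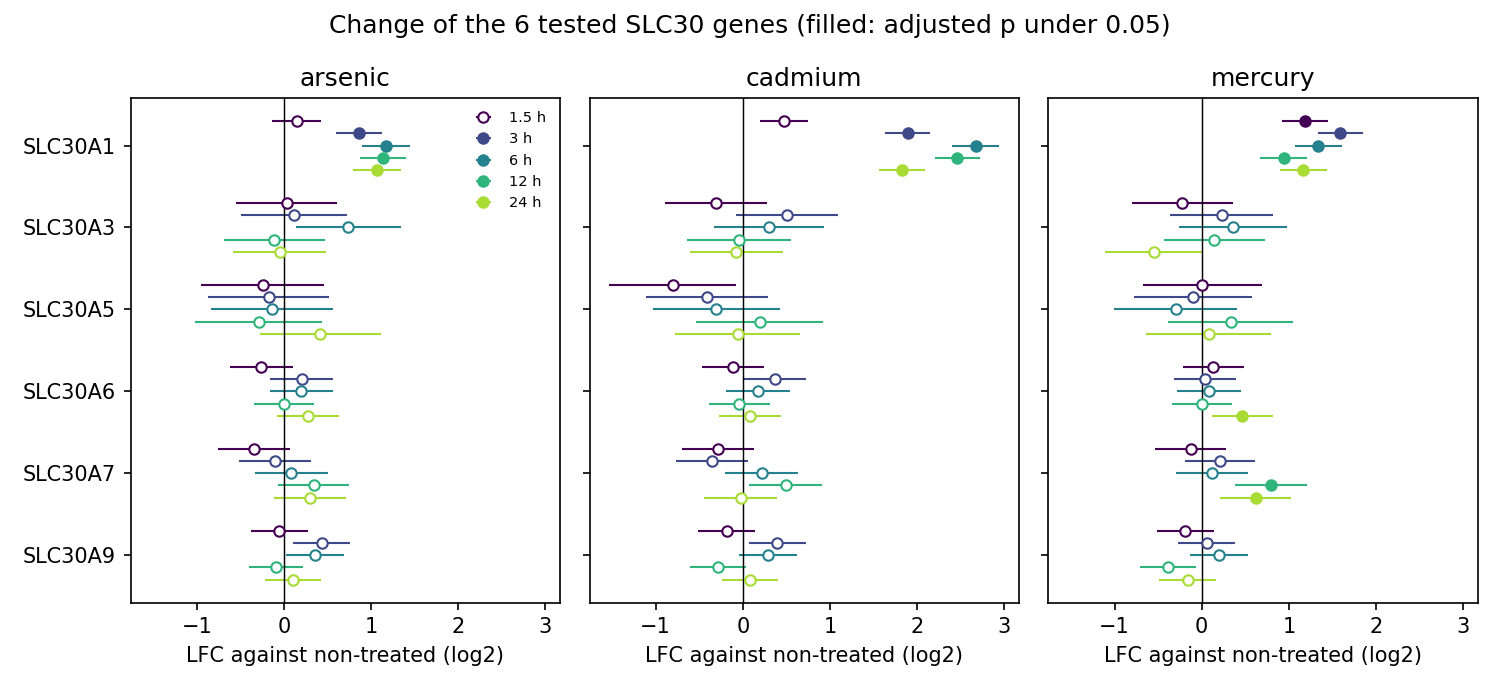
Log2 fold change against non-treated cells of the same time (x axis) for the 6 tested SLC30 genes (y axis). Metals are in separate panels and time points are told apart by colour. Bars are 95% intervals, and points are filled where the adjusted p was under 0.05. SLC30A1 is filled at 13 of 15 points, SLC30A7 at 2 and SLC30A6 at 1, all above 0.

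SLC30A5, SLC30A6 and SLC30A7 carry zinc into the early secretory pathway, where SLC30A5 and SLC30A6 work as a heterodimer and SLC30A7 works as a homodimer, and they supply zinc to secreted enzymes such as alkaline phosphatase. SLC30A7 (chr1:100896076-100981757, plus strand) stood at 48.7, 44.04 and 48.0 CPM after 12 h of mercury, against 26.0, 21.3 and 33.3 CPM without treatment. These groups did not overlap, and the LFC was 0.80 (SE 0.20, adjusted p = 0.00359), a 1.74-fold rise. In non-treated cells SLC30A7 itself was lower at 12 h than at 1.5 h, by an LFC of -0.47 (unadjusted p = 0.0289, adjusted p = 0.225), and the 3 non-treated libraries of 1.5 h held 37.3, 28.2 and 47.0 CPM, which reach into the range of the mercury libraries of 12 h.

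After 24 h of mercury, SLC30A7 held 49.1, 46.2 and 35.0 CPM, against 33.2, 15.7 and 35.5 CPM in non-treated cells. The groups overlapped, and the LFC of 0.62 (SE 0.20, adjusted p = 0.0165) fell to 0.34 (adjusted p = 0.254) without the non-treated library at 15.7 CPM. Leaving out either of the 2 higher mercury libraries also ended the call (LFC 0.52 and 0.58, adjusted p 0.0901 and 0.0578). In the direct comparison at 24 h, cadmium (33.0, 27.2 and 22.3 CPM) was below mercury by 1.56-fold (adjusted p = 0.0167), the only called difference between metals outside SLC30A1 among 75, beside 20% of all genes called in that comparison. That call was lost without cadmium replicate 3 (adjusted p = 0.108) and without mercury replicate 1 or 2 (adjusted p = 0.0953 and 0.0619).

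SLC30A6 (chr2:32165841-32224379, plus strand) stood at 44.4, 33.5 and 45.9 CPM after 24 h of mercury and at 28.8, 35.7 and 25.1 CPM in non-treated cells. These groups overlapped, and the LFC of 0.47 (SE 0.18, adjusted p = 0.0383) was no longer called without the low-count filter (adjusted p = 0.072), with the 6 libraries alone (adjusted p = 0.0589), or without any 1 of 4 of the 6 libraries: mercury replicate 1 (0.41, adjusted p = 0.13), mercury replicate 3 (0.39, 0.154), non-treated replicate 1 (0.45, 0.102) or non-treated replicate 3 (0.37, 0.156). Its partner SLC30A5 (chr5:69093991-69131069, plus strand) had an LFC of 0.08 (adjusted p = 0.898) in the same comparison, so the partners were not called together. SLC30A5 was the least abundant tested member, at 3.09 to 16.3 CPM, and its SE of 0.339 to 0.366 left its LFC values of -0.81 to 0.42 unresolved. The lowest of them, -0.81 with cadmium at 1.5 h, had libraries at 4.497, 8.58 and 3.88 CPM against 9.56, 10.8 and 9.15 CPM, and an adjusted p of 0.586.

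SLC30A9 (chr4:41990502-42090461, plus strand), linked to zinc export from mitochondria, varied least along with SLC30A6, with a highest group mean 1.43 times the lowest. It was called in none of the 15 comparisons by edgeR, 4 of which had an unadjusted p under 0.05, and by none of the other settings, DESeq2 among them. Among the 12341 genes tested, 694 to 4642 had an unadjusted p under 0.05 in a comparison. Its LFC ran from -0.39 with mercury at 12 h (adjusted p = 0.0951) to 0.43 with arsenic at 3 h (adjusted p = 0.499). In the latter, the arsenic libraries held 38.9, 39.8 and 42.0 CPM and the non-treated libraries 30.8, 30.5 and 28.1 CPM.

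SLC30A3 (chr2:27253684-27275817, minus strand), best known for loading zinc into synaptic vesicles of neurons, was present at a median of 30.2 CPM in non-treated libraries, close to SLC30A6, SLC30A7 and SLC30A9 (32.8, 33.2 and 30.9 CPM). It was the most variable tested member beside SLC30A5, at 13.2 to 48.0 CPM in non-treated libraries alone. Its highest group mean was that of non-treated cells at 24 h (45.3 CPM), against 30.4 CPM at 1.5 h and 28.1 CPM at 12 h. Arsenic and cadmium at 24 h had means of 43.9 and 43.5 CPM. Mercury had means of 31.0 CPM at 12 h and 30.9 CPM at 24 h, so its gap at 24 h lay beside a higher non-treated mean. No non-treated time point of SLC30A3 was called against 1.5 h, and the cause of the gap was not tested. At 24 h the non-treated libraries held 43.8, 48.0 and 44.1 CPM and the mercury libraries 29.6, 27.9 and 35.4 CPM, for an LFC of -0.55 (adjusted p = 0.137). That difference was called without the low-count filter (adjusted p = 0.0379) and with the 6 libraries alone (adjusted p = 0.0178). The highest value, 0.74 with arsenic at 6 h (adjusted p = 0.37), rested on libraries at 51.6, 23.3 and 26.4 CPM, of which the first lay far above the others.

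**Figure D5:**
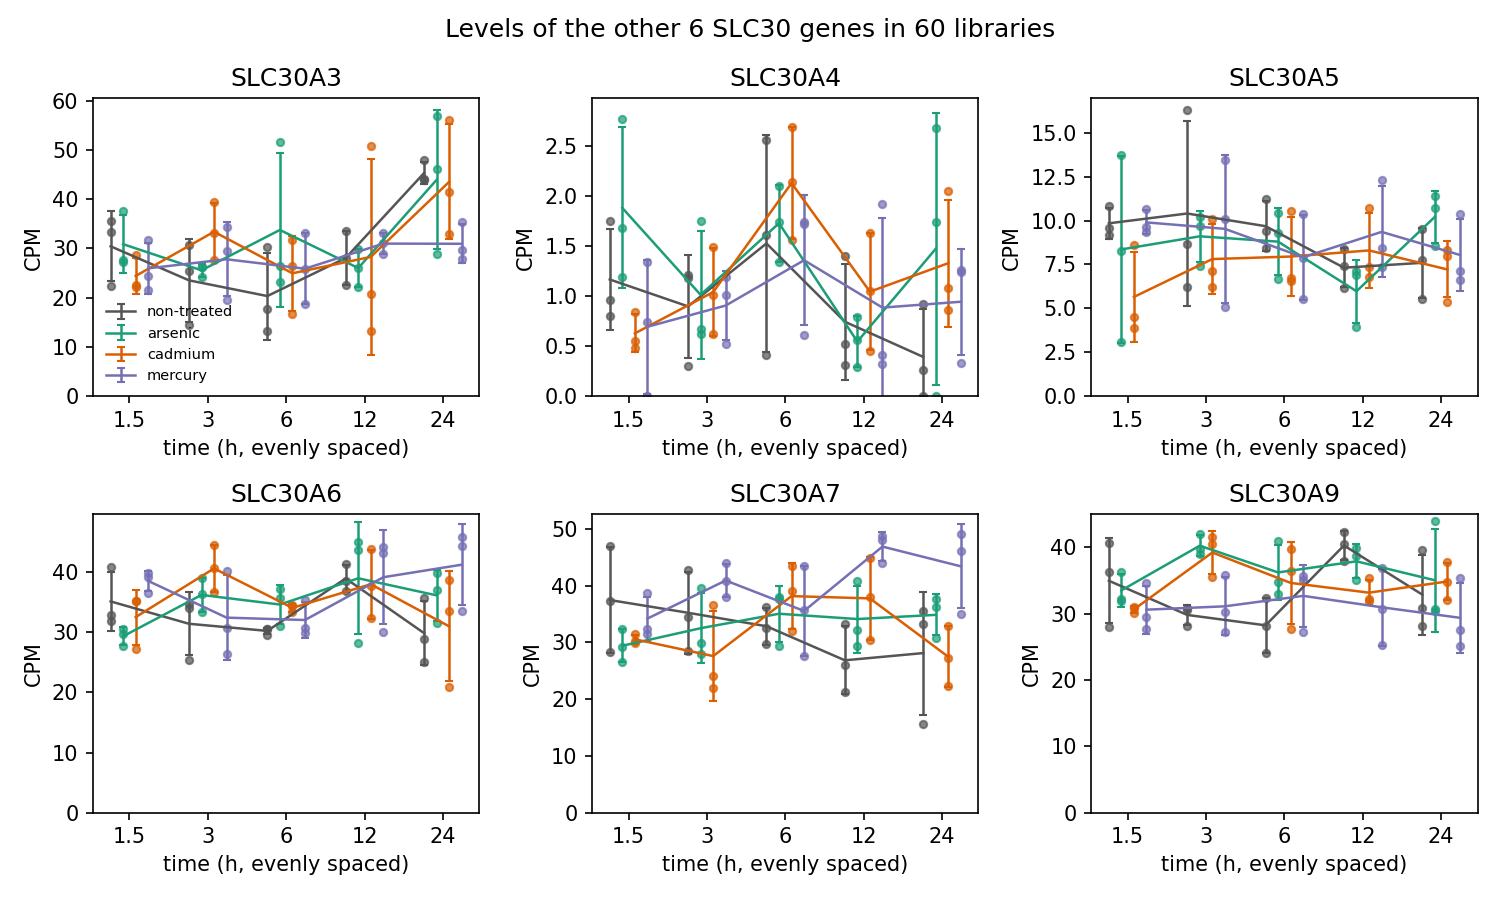
Level in CPM (y axis, one scale per panel) against hours of treatment (x axis, evenly spaced) for the 6 SLC30 genes other than SLC30A1, with points for libraries and lines with bars for mean ± SD of 3 libraries, cut at 0 for SLC30A4. Groups overlap for most times, and SLC30A7 with mercury stands above non-treated cells at 12 h.

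SLC30A4 (chr15:45479606-45522755, minus strand), an endosomal zinc transporter known for its part in zinc supply to milk, had 0 to 9 counts a library and group means of 0.39 to 2.13 CPM. At this depth no difference was detectable, and no fold change is given. Of the family genes outside the 7 members, SLC30A2 had 9 counts in all 60 libraries together, and SLC30A8 and SLC30A10 had none. SLC30A10, a manganese exporter of the plasma membrane, and SLC30A8, the zinc transporter of insulin granules, were therefore not seen in these cells at this depth.

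Across time in non-treated cells, 0 of 24 member values against 1.5 h were called by edgeR and 0 by DESeq2, with 2 at an unadjusted p under 0.05. Of all genes tested, 0.122%, 0.486%, 4.09% and 3.29% were called at 3, 6, 12 and 24 h against 1.5 h. An unadjusted p under 0.05 was found for 544, 1433, 2086 and 2110 of the 12341 genes at these times. SLC30A1 at 24 h had an LFC of -0.24 (adjusted p = 0.394) against 1.5 h. For every member other than SLC30A1, all 19 neighbours in the order of the 20 group means overlapped. Neighbours in such an order lie close by construction, so this overlap does not show an absence of change. SLC30A7 with mercury at 12 h was apart from non-treated cells of that time all the same. The variation between libraries beyond counting was a biological coefficient of variation of 0.0927 for SLC30A1 and between 0.101 and 0.231 for the other tested members.

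Neighbouring genes and similar sequences were checked because reads were assigned at the 3′ end. The last 400 exonic bases of each member's transcripts were overlapped by no other gene on the same strand. Stretches of 50 bases in them were shared with another gene for 2.68% of stretches in SLC30A5 and 5.19% in SLC30A6, and for none in the other 5 members, SLC30A1 and SLC30A7 included. The effect of the shared stretches on the counts of SLC30A6 was not tested.

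Other genes of zinc handling were counted from lists by name. Of 12 metallothionein genes, 4 passed the filter, and 0, 3, 4, 4 and 4 of them were called higher with cadmium from 1.5 h to 24 h, 2, 2, 3, 2 and 3 with mercury and 0, 1, 2, 2 and 3 with arsenic, with none lower. Of all genes tested, 0%, 0.203%, 1.6%, 5.19% and 1.56% were called higher with cadmium at these times, 0.478%, 1.39%, 4.49%, 8.89% and 13.9% with mercury and 0.0648%, 0.122%, 0.608%, 2.37% and 6.54% with arsenic. MT1B, 1 of the 4, had an LFC of 4.65, 6.98 and 7.43 with cadmium at 6, 12 and 24 h. With mercury at 24 h its LFC was 0, without an SE. It may have passed the filter through its cadmium groups alone, so its calls there do not bear on a difference between metals. MT1E, MT1X and MT2A were each called higher with cadmium from 3 h on. The time course of MT1E can be set beside that of SLC30A1: MT1E had an LFC of 0.38, 2.38, 3.71, 4.76 and 4.53 with cadmium, where SLC30A1 had 0.47, 1.89, 2.67, 2.46 and 1.82. With mercury at 1.5 h MT1E had an LFC of 0.81 (adjusted p = 1.21e-07) and SLC30A1 one of 1.19. With arsenic MT1E reached 2.06 (adjusted p = 7.42e-25) at 24 h, where SLC30A1 stood at 1.07. MT1E is the tested gene most like SLC30A1 over the 20 groups, and other metallothioneins differed in part. MT2A had an LFC of 0.33 (adjusted p = 0.979) with mercury at 1.5 h, and with cadmium it was highest at 24 h (3.71). MT1X had 1.03 (adjusted p = 0.0268) with mercury at 1.5 h, and with cadmium 5.34 at 12 h and 5.17 at 24 h. All these comparisons share their non-treated libraries.

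Of 14 SLC39 importer genes, 10 were tested, and 3 of them were called in any comparison. SLC39A14, an importer of zinc, manganese and iron, was called higher with mercury at 6 h, 12 h and 24 h (LFC 0.67, 0.95 and 0.91), with cadmium at 12 h (0.56) and with arsenic at 24 h (0.53), in comparisons where 4.49%, 8.89%, 13.9%, 5.19% and 6.54% of all genes were called higher. SLC39A10 was called lower with cadmium at 12 h and 24 h (-1.63 and -1.14) and with arsenic at 24 h (-0.88), and SLC39A13 was called lower with mercury at 24 h (-0.79). The share of all genes called lower there was 2.99%, 0.632%, 7.75% and 13.9%. MTF1 was called higher with mercury at 12 h (0.41, adjusted p = 0.0433) and 24 h (0.82, adjusted p = 6.68e-06) and in none of the other 13 comparisons, and the zinc carrier TMEM163 was not tested.

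The genes whose group means over the 20 groups were most like SLC30A1, by Pearson's correlation of mean log2 CPM over the 12341 genes tested, were MT1E (0.86), MT1X (0.85), the gene ENSG00000289942 listed without a symbol (0.82), ZBTB2 (0.78) and MT2A (0.77). The points share their libraries and treatments, and the values are a description. Between the 6 tested members the correlations ran from -0.47 for SLC30A7 and SLC30A9 to 0.41 for SLC30A5 and SLC30A7, and SLC30A1 reached at most 0.32, with SLC30A6. Of the other members, the most similar gene was FDFT1 for SLC30A3 (0.78), TMEM128 for SLC30A5 (0.75), PSMD12 for SLC30A7 (0.86) and CREB3L4 for SLC30A9 (0.76), each the highest value over the other genes tested.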

How the data were processed

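The deposited table held raw counts per gene for 60 libraries of 1321N1 cells (20 groups of 3), made by the authors from QuantSeq 3′ mRNA reads aligned with STAR 2.7.9a to GRCh38 and counted over GENCODE gene models in union mode with strand. No other per-sample file was used. Rows of 92 spike-in sequences held 0 counts and were left out of library sizes and tests.

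Groups came from the sample labels. Genes were filtered with filterByExpr (minimum count 10), which kept 12341 of 28620 genes with a count. TMM scaling factors ran from 0.934 to 1.03. One quasi-likelihood model (edgeR 4.0.16, limma 3.58.1, R 4.3.3) with a coefficient per group covered all 60 libraries, p-values were adjusted by Benjamini-Hochberg over the genes tested in a comparison, with a call at an adjusted p under 0.05. Tests are two-sided. The SE is the LFC divided by the square root of its F statistic, and intervals are at 95% and cover the spread between libraries only. Log2 CPM for correlations used a prior count of 2. The comparisons were metal against non-treated, metal against metal and the change of the metal effect between neighbouring times, and non-treated times against 1.5 h.

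Alternatives were size factors of the RLE kind, no filter, a minimum count of 20, the replicate number as a block, DESeq2 1.42.0 with a local dispersion fit, the 6 compared libraries alone, and each library left out. The scripts were tested on simulated counts. The members, lists and markers were chosen with earlier results of these data known. Named genes are the 7 members, the family genes outside them, called genes of the zinc lists, and the genes most correlated with a member (5 for SLC30A1, 1 for each other tested member), by that rule, of which the one for SLC30A6 is not reported here. Replicate libraries differed by more than sampling noise (lowest chi-square per degree of freedom 1.99 over 60 pairs). Promoters came from RefSeq (GRCh38.p14), and 3′ ends from a later GENCODE release than the authors used.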

Additional observations from a re-analysis of the deposited data

Results flagged for a closer look

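The effect of cadmium on SLC30A1 differed between time points in a test of the difference itself, an interaction term in the edgeR model. From 1.5 h to 3 h the effect grew by 1.42 on the log2 scale (SE 0.19, adjusted p = 6.24e-07), and from 3 h to 6 h it grew by a further 0.78 (SE 0.18, adjusted p = 0.035). The cadmium libraries of 3 h and 6 h all lay above those of the time point before. The second of these calls was lost in 6 of 12 fits that left out 1 library, namely cadmium at 3 h replicate 2, cadmium at 6 h replicate 3, non-treated at 3 h replicates 1 and 3, and non-treated at 6 h replicates 1 and 2.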

How the results depend on the processing

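The 13 called SLC30A1 comparisons with non-treated cells remained called in 156 of 156 alternatives (highest adjusted p 0.00205), with none reversed. With cadmium at 1.5 h, leaving out a library gave LFC values of 0.26 to 0.69, and the value without cadmium replicate 2 was called (adjusted p = 0.0343). The cadmium step from 3 h to 6 h ranged from 0.70 to 0.90 and lost its call in 6 of 12 such fits. The decline with cadmium from 12 h to 24 h was called by DESeq2 (-0.63, adjusted p = 0.0412). Arsenic steps near 0 changed sign when a non-treated library was left out: the step from 6 h to 12 h (-0.03) was 0.051 without non-treated 6 h replicate 1 and 0.017 without non-treated 12 h replicate 2, ranging from -0.14 to 0.051, and the step from 12 h to 24 h (-0.07) was 0.0039 without non-treated 12 h replicate 3, ranging from -0.13 to 0.0039. With mercury, SLC30A7 at 12 h ranged from 0.67 to 0.98 and stayed called, at 24 h from 0.34 to 0.82 with 3 of 6 calls kept, and SLC30A6 at 24 h from 0.37 to 0.61 with 2 of 6 kept. Cadmium against mercury at 24 h for SLC30A7 ranged from -0.81 to -0.53 with 3 of 6 kept. SLC30A6 with mercury at 24 h was not called with no filter (0.48, adjusted p = 0.072) or with the 6 libraries alone (0.48, adjusted p = 0.0589). Calls that appeared only in an alternative were SLC30A3 with arsenic at 6 h and no filter (0.75, adjusted p = 0.0485), SLC30A3 with mercury at 24 h as given above, SLC30A6 between cadmium and mercury at 24 h without cadmium replicate 1 (adjusted p = 0.0306) or mercury replicate 2 (0.0497), and SLC30A7 between them at 3 h without cadmium replicate 3 (0.0412). For these changes the cause was not tested.

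The replicate numbers did not pair the libraries (median correlation of deviations -0.00799, 0 of 45 pairs over 0.1). With the replicate number as a block, 16 of 90 member values against non-treated cells were called, as without it, the block changed no call named above, and SLC30A1 with cadmium at 6 h had an LFC of 2.67 (adjusted p = 4.89e-25).

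Depth limits the rarer members. SLC30A5 had a median of 28 counts a library and SLC30A4 of 3, against 305.5 for SLC30A1. The SE of SLC30A5 was 0.339 or more, and changes well beyond that SE could still be missed. Its lowest LFC against non-treated cells, -0.81, was not called.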
